A study of Mus musculus with 7 samples.

Results

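Laminins, basement membrane glycoproteins, matricellular proteins, proteoglycans, elastic fibre components and matrix crosslinking enzymes were examined in cultured lung endothelial cells (MLEC) with and without endothelial adrenomedullin. The 41 genes were taken by symbol from a table of 38472 genes, and every one of them was present. The AM EC-KO group had 3 libraries (labels b, d and g) from C57BL/6 mice in which Cre driven by the VE-cadherin (Cdh5) promoter deletes a floxed *Adm* gene. The WT group had 4 libraries (labels a, c, e and f) from wild type mice of the same strain. No age is given in the labels. MLEC had been taken from pooled lungs of several mice with beads against PECAM-1, cultured, sorted again with beads against ICAM-2 and passaged. The study describes its sequenced replicates as MLEC preparations, but the labels do not tie a library to a preparation, and the p-values measure the spread among these libraries. Levels are FPKM, which scale reads by the length of the transcript and by sequencing depth, and values are listed in the order b, d, g for AM EC-KO and a, c, e, f for WT. Differences between genotypes are AM EC-KO minus WT on the log2(FPKM + 1) scale.

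The basement membrane is the sheet of matrix on which endothelial cells sit. Laminins, which are trimers of an alpha, a beta and a gamma chain, form one of its networks, type IV collagen forms another, and nidogens and perlecan join them. Further out, elastin is laid down on fibrillin with the help of fibulins, and lysyl oxidases and transglutaminase link fibres covalently. In lung, elastic fibres give vessels and alveoli their recoil.

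From the low FPKM steps the depth was estimated at 6.44 to 7.7 M reads in the AM EC-KO libraries and 7.02 to 7.54 M in the WT libraries. Whole reads were not recovered, so these depths are rough. *Adm*, the targeted gene, was at 9.31, 17.2 and 0.750 FPKM in the AM EC-KO libraries, against 48.2, 70.1, 76.1 and 43.8 FPKM in the WT libraries. The 2 genotypes did not overlap for *Adm*, with a log2 fold change of -3.10 (SE 0.75), yet its limma p adjusted over 15604 tested genes was 0.954. The 12 endothelial markers summed to 3384 to 3874 FPKM in AM EC-KO and 3559 to 4076 FPKM in WT, although *Vwf* was listed at 0 in 5 libraries and reached 89.5 FPKM in WT e. The 12 fibroblast markers summed to 322 to 368 FPKM in AM EC-KO and 260 to 356 FPKM in WT, most of it *Thy1*, and to 50.9 to 106 FPKM and 28.2 to 196 FPKM without *Thy1*. *Thy1* itself was at 259 to 291 FPKM in AM EC-KO and 160 to 257 FPKM in WT, without overlap (limma, adjusted p = 0.954). Smooth muscle and pericyte markers summed to 504 to 681 FPKM in AM EC-KO and 331 to 634 FPKM in WT, and the 11 myeloid markers to 54.4 to 237 FPKM in AM EC-KO and 51.6 to 129 FPKM in WT. The 11 epithelial markers summed to 13.5 to 15.3 FPKM in AM EC-KO and 13.8 to 25.3 FPKM in WT, with *Sftpc* listed at 10.3 FPKM in WT e and at 0 elsewhere. The 6 mesothelial markers summed to 34.8 to 56.7 FPKM in AM EC-KO and 3.23 to 59.8 FPKM in WT. The leukocyte gene *Ptprc* and the epithelial gene *Nkx2-1* were listed at 0 in all 7 libraries. Library WT e stood apart: it held the highest value of 31.0% of the tested genes and the lowest value of 22.7%. In such bulk samples, fewer cells of a type and less RNA per cell cannot be told apart.

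Whether loss of endothelial AM changed the matrix genes was asked with 1 limma fit over all tested genes. None of the 40 matrix genes that could be tested passed FDR 0.1, against 0.0641% of all tested genes. At an unadjusted p under 0.05 the count was likewise 0, against 3.07% of all tested genes, and there was no matrix gene whose genotypes did not overlap, against 5.13%. The fold changes were positive for 26 genes and negative for 14, with a median of 0.078, beside a median of -0.0085 over all tested genes. Adjusted p-values from limma ran from 0.954 to 0.997. *Loxl3*, *Loxl2*, *Lox* and *Postn* had the smallest unadjusted p-values, and their values are given with their groups. The precision differed widely among genes: the 95% interval spanned -0.26 to 0.11 for *Lamb1* but -4.10 to 4.36 for *Mgp*. For genes with intervals as wide as that of *Mgp*, even large changes in either direction were not detectable with these libraries.

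**Figure D1:**
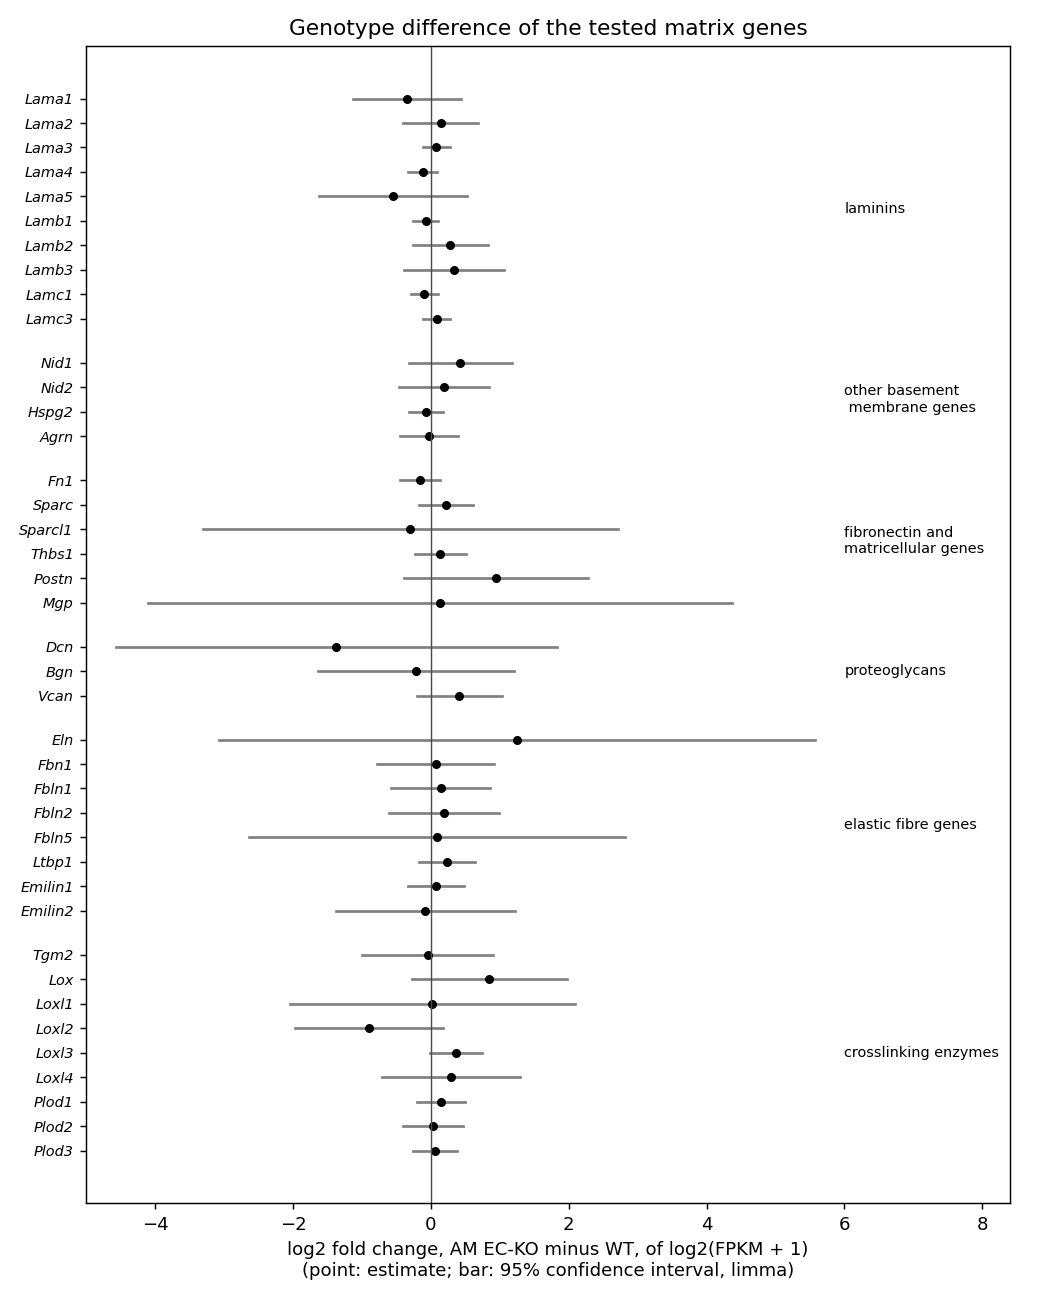
Genotype difference of the 40 tested matrix genes, one row per gene and grouped by role. The points are log2 fold changes, AM EC-KO minus WT, of log2(FPKM + 1), and the bars are 95% confidence intervals from limma. Every interval includes 0, with *Lamb1* among the narrowest at -0.26 to 0.11 and *Mgp* and *Eln* among the widest.

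**Figure D2:**
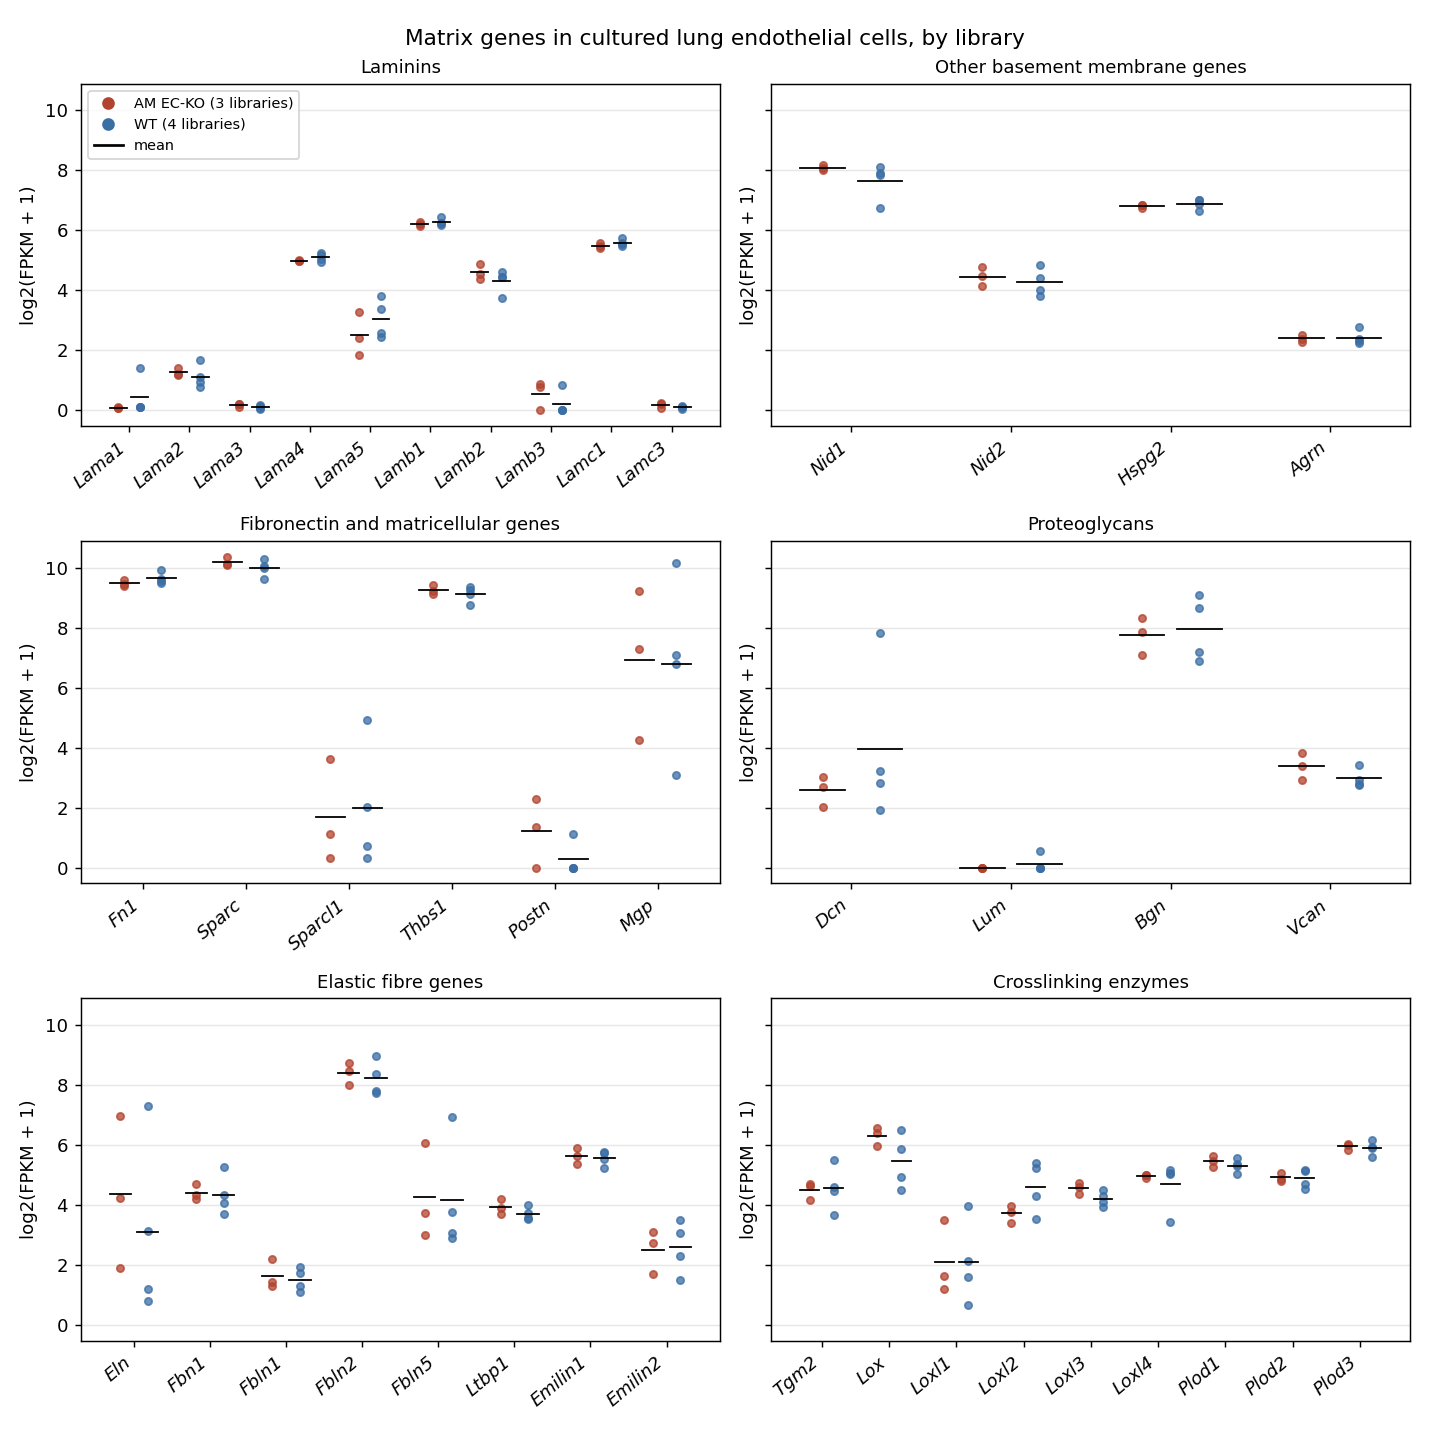
Level of the 41 matrix genes in every library as log2(FPKM + 1), in 6 panels by role. Red points are the 3 AM EC-KO libraries, blue points the 4 WT libraries, and black lines the mean of each genotype. The points of both genotypes overlap for every gene, and *Sparcl1*, *Mgp*, *Dcn*, *Eln* and *Fbln5* spread over several log2 units within a genotype.

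Among the laminins, MLEC of both genotypes expressed mainly *Lamb1*, *Lamc1*, *Lama4* and *Lamb2*. None of the 10 genes passed the test, and 5 fold changes were positive and 5 negative, with a median of -0.0024. *Lamb1* (chr12:31265234-31329644, plus strand, GRCm38), which encodes the widely used beta1 chain, was at 69.1, 72.3 and 76.2 FPKM in the AM EC-KO libraries and at 71.6, 75.1, 85.1 and 75.3 FPKM in the WT libraries. The means were 72.5 ± 3.56 FPKM in AM EC-KO and 76.8 ± 5.79 FPKM in WT (SD, n = 3 and 4), a log2 fold change of -0.08 (SE 0.08). No other matrix gene had so small a coefficient of variation over the 7 libraries, 6.82%.

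*Lamc1* (chr1:153218922-153332786), the gamma1 chain gene, was at 41.4, 43.6 and 46.7 FPKM in the AM EC-KO libraries, against 43.7, 45.4, 47.1 and 52.1 FPKM in the WT libraries. The highest value was that of WT f, and the log2 fold change was -0.10 (95% interval -0.29 to 0.10). *Lama4* (chr10:38965515-39110188) encodes the alpha4 chain of endothelial laminin. It was at 30.7, 31.4 and 30.2 FPKM in the AM EC-KO libraries, against 29.9, 37.3, 35.4 and 32.2 FPKM in the WT libraries. The AM EC-KO values had an SD of 0.588 FPKM and lay inside the WT range, with a log2 fold change of -0.12 (95% interval -0.34 to 0.09). *Lamb2* (chr9:108479736-108490530), the beta2 chain gene of vascular and neuromuscular basement membranes, was at 19.8, 22.3 and 28.3 FPKM in the AM EC-KO libraries, against 20.9, 20.6, 12.5 and 23.7 FPKM in the WT libraries. Its lowest value was in WT e, and without that library the WT mean was 21.7 ± 1.73 FPKM (SD, n = 3).

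*Lama5* (chr2:180176373-180225859) encodes the alpha5 chain, the second endothelial alpha chain, and varied far more than *Lama4*. The AM EC-KO libraries had 2.61, 4.27 and 8.65 FPKM, and the WT libraries had 5.02, 4.50, 13.0 and 9.45 FPKM. Libraries e, f and g were the 3 highest whatever their genotype. The log2 fold change of -0.55 (SE 0.45) was -0.40 within libraries a to d and -0.33 within e to g. Here and for the genes below, g is the only AM EC-KO library within e to g. No label says that these libraries were made apart from a to d. The other chains were low. *Lama2*, the alpha2 chain gene known from muscle, ranged over 1.27 to 1.69 FPKM in AM EC-KO and 0.708 to 2.18 FPKM in WT. *Lama3* and *Lamc3* stayed under 0.2 FPKM in every library. *Lamb3*, which encodes a chain of the epithelial laminin of skin, was listed at 0, 0.825 and 0.717 FPKM in the AM EC-KO libraries and at 0, 0, 0 and 0.820 FPKM in the WT libraries. *Lama1*, the alpha1 chain gene of early embryonic basement membranes, was at 0.0519, 0.0683 and 0.0930 FPKM in the AM EC-KO libraries and at 0.0843, 0.0922, 1.64 and 0.0948 FPKM in the WT libraries. Its value in WT e was 17.3 times the next highest.

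With FPKM taken as levels per length, the chains could be compared within a library. *Lama4* made up 88.4, 84.4 and 74.0% of the alpha chain FPKM in the AM EC-KO libraries, against 82.4, 86.8, 69.7 and 73.2% in the WT libraries. The share was lowest in e, f and g, the libraries with the most *Lama5*. *Lamb1* exceeded *Lamc1* in every library, by a ratio of 1.63 to 1.67 in AM EC-KO and 1.45 to 1.81 in WT. The deposited interval of *Lamc1* covers 0.579% of the gene and that of *Lamb1* all of it, and the length by which each FPKM was scaled is not given in the sources used here, which bears on the size of this ratio. The alpha chains summed to 37.6 ± 3.04 FPKM in AM EC-KO and 43.5 ± 5.92 FPKM in WT (SD, n = 3 and 4), with overlap through WT a. For the beta chains the sums were 96.5 ± 8.22 FPKM in AM EC-KO and 96.4 ± 3.12 FPKM in WT (SD, n = 3 and 4). The ratio of the beta to the alpha sum was 2.56, 2.57 and 2.58 in the AM EC-KO libraries, against 2.55, 2.23, 1.92 and 2.27 in the WT libraries. The genotypes did not overlap in this ratio, though WT a came close to AM EC-KO b. This ratio was chosen after its values were seen and is given without a test.

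**Figure D3:**
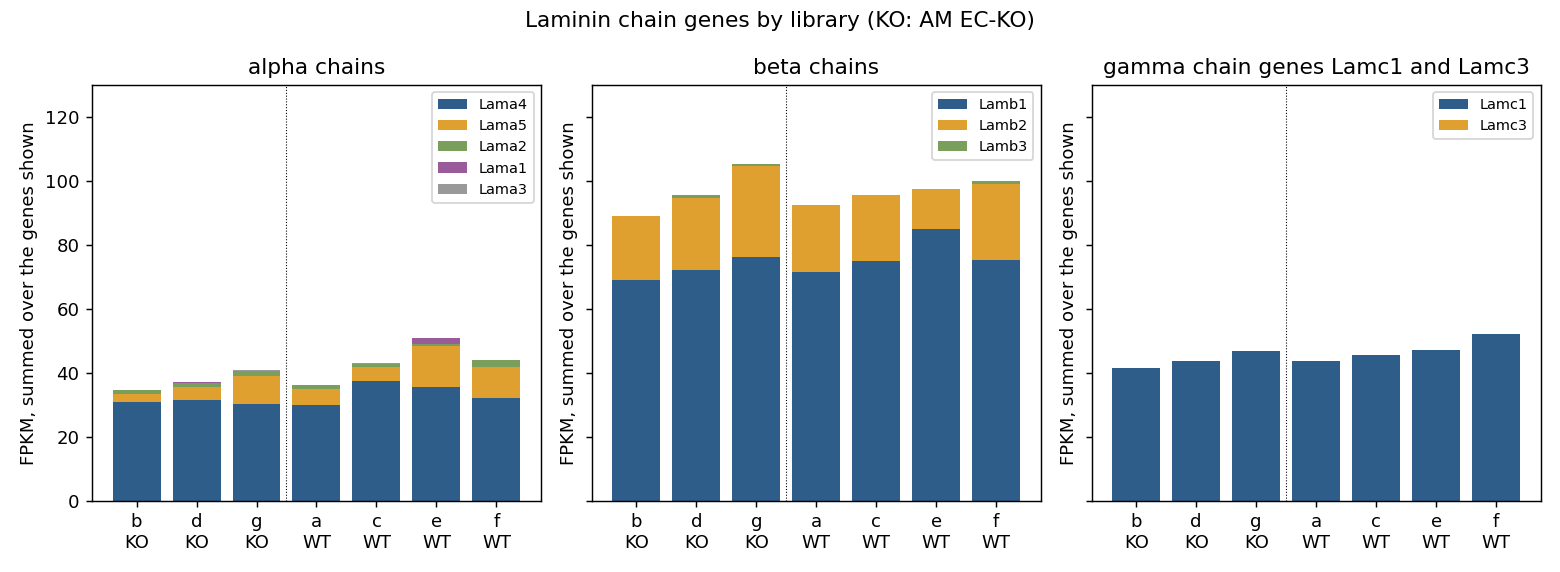
Laminin chain genes by library, as FPKM stacked over the alpha chains, the beta chains and the gamma chain genes *Lamc1* and *Lamc3*. The AM EC-KO libraries stand left of the dotted line and the WT libraries right of it. *Lama4*, *Lamb1* and *Lamc1* fill most of each bar in both genotypes, and *Lama5* takes 21.2% of the alpha bar in AM EC-KO g, 25.6% in WT e and 21.5% in WT f.

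The other basement membrane genes were led by *Nid1* and *Hspg2*. *Nid1* (chr13:13437551-13512269) encodes nidogen-1, which binds the laminin gamma1 chain and type IV collagen. It was at 288, 254 and 266 FPKM in the AM EC-KO libraries, and at 273, 230, 106 and 241 FPKM in the WT libraries. WT e alone was far below the others. The means were 269 ± 17.0 FPKM in AM EC-KO and 212 ± 73.0 FPKM in WT (SD, n = 3 and 4), while without e the WT mean was 248 ± 22.0 FPKM. The log2 fold change of 0.42 (SE 0.31) was 0.11 within libraries a to d and 0.73 within e to g. The second value sets g alone against WT e and f, and so holds the low value of WT e.

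*Hspg2* (chr4:137468769-137570630) encodes perlecan, the large heparan sulphate proteoglycan of basement membranes. It was at 115, 107 and 113 FPKM in the AM EC-KO libraries, against 128, 117, 99.0 and 129 FPKM in the WT libraries. WT e was the lowest of all 7 libraries, and the other 3 WT libraries lay above every AM EC-KO library. With e in, the log2 fold change was -0.07 (95% interval -0.32 to 0.17). Without it, it was -0.15 (SE 0.06, adjusted p = 1.00), of the same sign and likewise short of the threshold. Leaving out the lowest WT library makes a negative difference larger by construction. *Nid2* (chr14:19751265-19811787), which encodes nidogen-2, was at 21.1, 26.2 and 16.6 FPKM in the AM EC-KO libraries, against 20.2, 28.0, 13.0 and 15.0 FPKM in the WT libraries. *Agrn* (chr4:156165290-156197488), the gene of the heparan sulphate proteoglycan agrin, was at 4.26, 4.75 and 3.88 FPKM in the AM EC-KO libraries and at 3.72, 4.25, 5.82 and 3.97 FPKM in the WT libraries. Both genes overlapped between genotypes, with fold changes of 0.19 (SE 0.28) for *Nid2* and -0.03 (SE 0.18) for *Agrn*. The median over the 4 genes was 0.08.

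Fibronectin and the matricellular genes included the most abundant of the 41 by FPKM. The deposited intervals cover 1.02% of *Sparc* and 0.502% of *Fn1*, and the length used for scaling is not given. *Sparc* (chr11:55394500-55423183), whose product binds collagen and modulates cell adhesion, was at 1088, 1123 and 1319 FPKM in the AM EC-KO libraries and at 1055, 1005, 786 and 1236 FPKM in the WT libraries. Its genotypes overlapped through WT f, and the log2 fold change was 0.22 (SE 0.16). *Fn1* (chr1:71585520-71653200), the fibronectin gene, was at 673, 766 and 698 FPKM in the AM EC-KO libraries and 744, 969, 790 and 711 FPKM in the WT libraries. WT c was the highest, and the log2 fold change was -0.17 (95% interval -0.46 to 0.13). *Thbs1* (chr2:118111876-118127133) encodes thrombospondin-1, an inhibitor of angiogenesis and activator of latent TGF-beta. It was at 592, 687 and 559 FPKM in the AM EC-KO libraries, against 554, 605, 655 and 433 FPKM in the WT libraries, a log2 fold change of 0.14 (95% interval -0.23 to 0.50). These 3 genes had coefficients of variation of 12.9 to 15.7%.

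*Mgp*, *Sparcl1* and *Postn* behaved otherwise. *Mgp* (chr6:136872435-136875823) encodes matrix Gla protein, an inhibitor of calcification and of BMP signalling. It was at 17.9, 596 and 156 FPKM in the AM EC-KO libraries and at 7.58, 135, 1145 and 111 FPKM in the WT libraries. The highest library exceeded the lowest 151-fold, and both genotypes had libraries at either end of the range. *Sparcl1*, a relative of *Sparc*, was likewise highest in e and d and lowest in a and b, with 0.249, 11.5 and 1.19 FPKM in the AM EC-KO libraries and 0.270, 3.03, 29.1 and 0.649 FPKM in the WT libraries. *Postn*, the gene of periostin of collagen-rich matrix, was listed at 0, 3.91 and 1.59 FPKM in AM EC-KO and at 0, 1.19, 0 and 0 FPKM in the WT libraries. Its log2 fold change was 0.94 (SE 0.56), and 1 AM EC-KO library was at 0 like 3 of the WT libraries. Over the 6 genes the median was 0.13.

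Of the proteoglycans, *Bgn* was the most abundant. *Bgn* (chrX:73483602-73495933) encodes biglycan, a small leucine-rich proteoglycan. It was at 136, 229 and 316 FPKM in the AM EC-KO libraries, against 118, 147, 405 and 544 FPKM in the WT libraries. As for *Lama5*, libraries e, f and g were highest in both genotypes. The log2 fold change of -0.22 (SE 0.60) was 0.42 within libraries a to d and -0.57 within e to g. *Dcn* (chr10:97479609-97518143), the gene of decorin, which binds collagen fibrils, was at 3.04, 5.49 and 7.21 FPKM in the AM EC-KO libraries and at 2.83, 8.47, 227 and 6.04 FPKM in the WT libraries. WT e was 26.8 times the next library. With that library left out, the WT mean was 5.78 ± 2.83 FPKM (SD, n = 3), next to 5.25 ± 2.10 FPKM in AM EC-KO (SD, n = 3). *Lum*, which encodes lumican, a decorin relative and neighbour of *Dcn* on chromosome 10, was listed at 0 in 6 libraries and at 0.483 FPKM in WT e, and was not tested.

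*Vcan* (chr13:89655312-89742509) encodes versican, a hyaluronan-binding proteoglycan of loose matrix. It was at 9.58, 13.3 and 6.63 FPKM in the AM EC-KO libraries, against 6.67, 5.81, 9.64 and 5.97 FPKM in the WT libraries. The log2 fold change was 0.41 (SE 0.26), with 0.77 within libraries a to d and -0.17 within e to g. The 3 tested proteoglycan genes had a median of -0.22.

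Several elastic fibre genes varied widely between libraries of the same genotype. *Fbln2* (chr6:91212455-91272540), the gene of fibulin-2, an elastic fibre and basement membrane glycoprotein, was the most abundant. It was at 354, 256 and 428 FPKM in the AM EC-KO libraries, against 333, 212, 221 and 503 FPKM in the WT libraries. *Eln* (chr5:134702593-134747323), the elastin gene, was at 18.1, 2.73 and 124 FPKM in the AM EC-KO libraries and at 7.81, 1.34, 0.760 and 156 FPKM in the WT libraries. Its 2 high libraries were g and f, one of each genotype, and the highest value was 206 times the lowest. *Fbln5* (chr12:101746565-101819055), the gene of fibulin-5, which brings tropoelastin to the fibrillin scaffold, was at 12.3, 7.04 and 65.5 FPKM in the AM EC-KO libraries and at 6.56, 7.48, 12.7 and 120 FPKM in the WT libraries. The same 2 libraries were high again. Log2 fold changes were 0.19 (SE 0.34) for *Fbln2*, 1.25 (SE 1.82) for *Eln* and 0.09 (SE 1.15) for *Fbln5*.

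*Emilin1* (chr5:30913402-30921277), the gene of a glycoprotein at the elastin and microfibril interface, was steadier. It was at 40.8, 48.5 and 58.4 FPKM in the AM EC-KO libraries, against 36.6, 45.0, 52.2 and 53.2 FPKM in the WT libraries, with a log2 fold change of 0.07 (95% interval -0.33 to 0.48). *Fbn1*, the gene of fibrillin-1 and so of the microfibril itself, ranged over 17.4 to 25.1 FPKM in AM EC-KO and 12.1 to 37.7 FPKM in WT. *Ltbp1*, whose product anchors latent TGF-beta in the matrix, ranged over 12.1 to 17.5 FPKM in AM EC-KO and 10.7 to 15.2 FPKM in WT. The range of *Fbln1*, for fibulin-1, was 1.49 to 3.65 FPKM in AM EC-KO and 1.14 to 2.80 FPKM in WT. *Emilin2* ranged over 2.25 to 7.59 FPKM in AM EC-KO and 1.83 to 10.4 FPKM in WT. Of the 8 genes, 7 had positive fold changes and none passed the test, and the median was 0.11.

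Among the crosslinking enzymes were the genes with the smallest p-values. *Loxl3* (chr6:83034173-83052562), a lysyl oxidase-like gene with scavenger receptor domains, was at 19.8, 25.6 and 23.4 FPKM in the AM EC-KO libraries, against 21.6, 14.2, 16.2 and 18.7 FPKM in the WT libraries. Of the WT libraries, a alone reached into the AM EC-KO range. The log2 fold change was 0.37 (SE 0.16, adjusted p = 0.954), and exchanging the genotype labels in an exact permutation test, two-sided, gave p = 0.114, where 0.0571 is the smallest possible. It was 0.34 within libraries a to d and 0.41 within e to g. *Lox* (chr18:52516067-52529867), the lysyl oxidase gene that acts on collagen and elastin, was at 83.6, 61.3 and 94.7 FPKM in the AM EC-KO libraries and at 57.5, 29.9, 22.0 and 90.7 FPKM in the WT libraries. WT f lay among the AM EC-KO libraries, and the log2 fold change was 0.85 (SE 0.47). Without f it was 1.20 (SE 0.36, adjusted p = 0.894). Since f was the highest WT library, leaving it out enlarges the difference by construction.

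*Loxl2* (chr14:69609068-69695834), whose product crosslinks type IV collagen, pointed the other way. It was at 12.8, 9.66 and 14.8 FPKM in the AM EC-KO libraries, against 10.7, 18.8, 41.3 and 36.4 FPKM in the WT libraries. WT a fell inside the AM EC-KO range and the other 3 WT libraries above it. The log2 fold change was -0.90 (SE 0.45), and without a it was -1.25 (SE 0.32, adjusted p = 0.852). Since a was the lowest WT library, this larger difference also follows from the choice of library. *Loxl4* was at 31.4, 31.3 and 29.3 FPKM in the AM EC-KO libraries, against 32.8, 32.1, 9.94 and 35.4 FPKM in the WT libraries, with WT e below all others. *Loxl1*, which in mice is needed for elastic fibre renewal, ranged over 1.31 to 10.4 FPKM in AM EC-KO and 0.587 to 14.6 FPKM in WT.

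The procollagen lysyl hydroxylases, which prepare collagen for crosslinking, were among the steadier genes. *Plod3* (chr5:136987019-136996648) was at 63.3, 56.4 and 65.2 FPKM in the AM EC-KO libraries, against 60.1, 58.7, 47.9 and 71.1 FPKM in the WT libraries. *Plod1* (chr4:147909753-147936767) was at 38.1, 49.2 and 42.9 FPKM in the AM EC-KO libraries and at 31.8, 46.8, 40.4 and 38.5 FPKM in the WT libraries. *Plod2* (chr9:92542223-92608428) was at 32.9, 28.5 and 27.1 FPKM in the AM EC-KO libraries and at 34.5, 25.0, 22.4 and 35.3 FPKM in the WT libraries. The WT range enclosed the AM EC-KO range for *Plod3* and *Plod2* and overlapped it for *Plod1*. The fold changes were 0.06 (SE 0.13), 0.14 (SE 0.15) and 0.03 (SE 0.18) for *Plod3*, *Plod1* and *Plod2*. *Tgm2*, the tissue transglutaminase gene, was at 17.2, 24.1 and 24.8 FPKM in the AM EC-KO libraries, against 11.7, 21.0, 44.4 and 23.2 FPKM in the WT libraries. The 9 enzymes had a median of 0.06, with 7 positive fold changes and 2 negative.

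Much of the variation of the matrix genes ran across the genotypes. The orders described here were chosen after the values were seen and are given without a test. The 2 highest libraries were f and g for 10 of the 40 tested matrix genes, 25%, against 11.2% of all tested genes. These were *Lama2*, *Lamb2*, *Sparc*, *Eln*, *Fbn1*, *Fbln2*, *Fbln5*, *Emilin1*, *Lox* and *Plod3*. Libraries d and e were the 2 highest for 8, 20%, against 5.88% of all tested genes. This second set held *Agrn*, *Sparcl1*, *Thbs1*, *Mgp*, *Vcan*, *Fbln1*, *Ltbp1* and *Loxl1*. Libraries a and b were the 2 lowest for 10, 25%, against 5.82% of all tested genes. Each of these pairs of libraries holds 1 library of either genotype. A mean of at least 1 FPKM together with a coefficient of variation over 100% was found in 6 matrix genes, 15%, against 2.77% of all tested genes. They were *Sparcl1*, *Mgp*, *Dcn*, *Eln*, *Fbln5* and *Loxl1*.

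Some markers of mesenchymal and myeloid cells had the same order, and others did not. Libraries d and e were the 2 highest for 5 of the 12 fibroblast markers, 2 of the 12 smooth muscle and pericyte markers and 3 of the 11 myeloid markers. Some of these were near the floor. *Tcf21*, at 0.125 FPKM in AM EC-KO d and 1.27 FPKM in WT e, and *Dpt*, at 0.266 and 0.0901 FPKM, were too low to be tested. The myeloid *Emr1* was at 0.907 and 0.130 FPKM. *Col1a2* was listed at 49.5 FPKM in AM EC-KO d and 83.1 FPKM in WT e and at no more than 0.105 FPKM elsewhere. In those other libraries *Col1a1* ranged over 10.2 to 28.8 FPKM. Whether the low *Col1a2* values are failed estimates was not tested. *Pdgfrb* was at 9.64 FPKM in AM EC-KO d and 16.4 FPKM in WT e, while the remaining 5 libraries ranged over 3.77 to 6.66 FPKM. In the other direction, *Thy1*, the most abundant fibroblast marker, was lowest in WT e, at 160 FPKM, and highest in AM EC-KO b, at 291 FPKM. Of the myeloid markers, *Fcer1g* and *Cd68* were highest in AM EC-KO d, at 45.0 and 29.6 FPKM, and lowest in WT e, at 2.82 and 4.47 FPKM. Libraries f and g were the 2 highest for *Col5a1* of the fibroblast markers, with 22.2 FPKM in AM EC-KO g and 33.7 FPKM in WT f. The same held for *Myh11* and *Lmod1* of the smooth muscle markers and for *Esam* of the endothelial markers. It also held for *Msln* of the 6 mesothelial markers, with 4.61 FPKM in AM EC-KO g and 7.38 FPKM in WT f. Of the fibroblast markers *Mfap4* was listed at 0 in every library, as was *Abcc9* of the smooth muscle and pericyte markers. The part of such cells in these values was not tested.

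**Figure D4:**
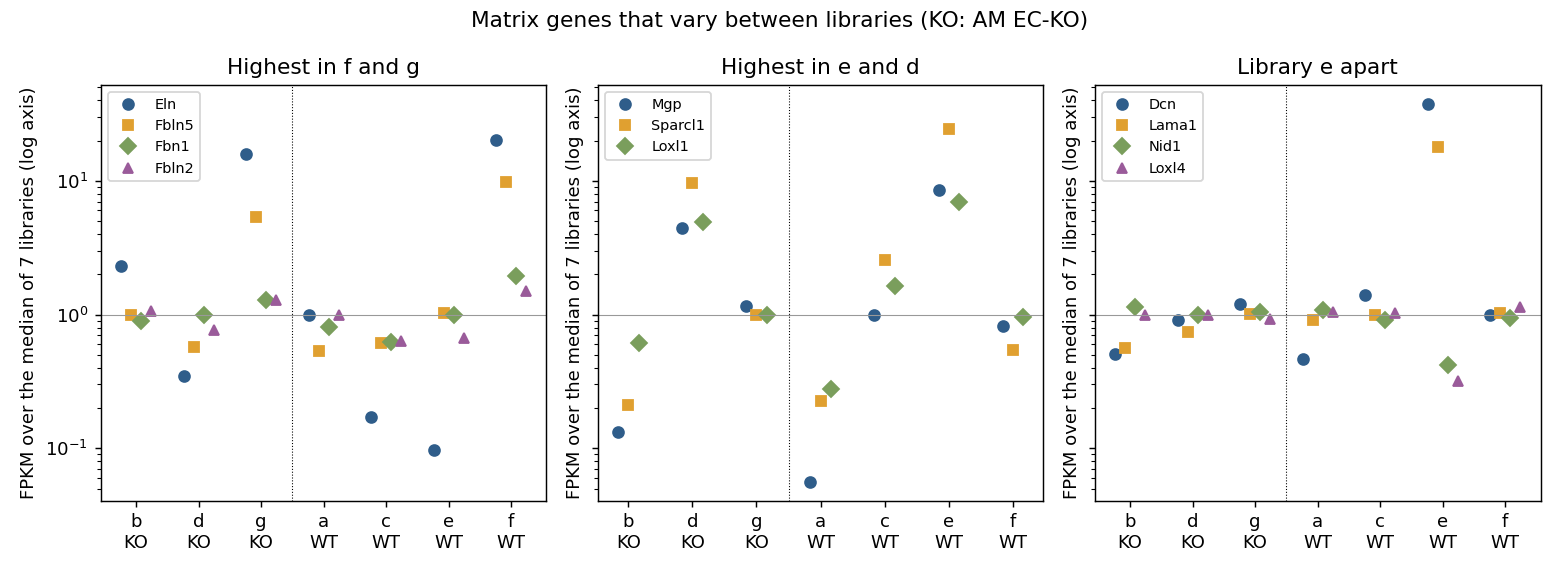
FPKM of 11 matrix genes over their median of the 7 libraries, on a log axis, with the AM EC-KO libraries left of the dotted line and the WT libraries right of it. *Eln* and *Fbln5* are high in AM EC-KO g and WT f, *Mgp*, *Sparcl1* and *Loxl1* in AM EC-KO d and WT e, and in WT e alone *Dcn* and *Lama1* are high and *Nid1* and *Loxl4* low.

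Promoter sequence is shown for the genes of these sets, since such sets share an order of libraries and the bases before their starts can be compared. RefSeq entries (GRCm38.p6) were at hand for 22 of the 41 genes. Of those in either set whose 250 bases before the start touch no GENCODE exon, the 2 with the largest variation are printed, 5′ to 3′ on the strand of the gene. Capitals mark matches, on either strand, to TATAAA (the TATA box), GGGCGG (the GC box), CACGTG (an E box) or TGANTCA (the AP-1 site). The first 2 belong to the set highest in f and g, where no other gene with an entry had a window free of exons.
Fbln5, chr12:101819120-101819369, minus strand: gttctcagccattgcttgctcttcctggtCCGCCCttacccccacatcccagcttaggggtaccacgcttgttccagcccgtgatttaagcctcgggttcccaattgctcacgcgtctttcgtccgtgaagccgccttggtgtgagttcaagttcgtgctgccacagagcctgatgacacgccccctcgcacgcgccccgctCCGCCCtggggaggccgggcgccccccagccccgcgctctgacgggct
Lama2, chr10:27616943-27617192, minus strand: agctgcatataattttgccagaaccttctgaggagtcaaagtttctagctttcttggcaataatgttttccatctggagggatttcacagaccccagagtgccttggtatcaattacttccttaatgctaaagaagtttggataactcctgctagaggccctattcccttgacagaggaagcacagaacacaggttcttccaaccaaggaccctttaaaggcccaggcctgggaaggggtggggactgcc
The next 2 belong to the set highest in d and e.
Vcan, chr13:89742513-89742762, minus strand: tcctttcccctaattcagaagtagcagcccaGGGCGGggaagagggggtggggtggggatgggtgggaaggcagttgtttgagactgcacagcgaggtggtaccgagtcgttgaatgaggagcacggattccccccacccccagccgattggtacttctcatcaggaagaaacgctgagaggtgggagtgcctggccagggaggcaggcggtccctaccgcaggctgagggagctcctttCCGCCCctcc
Fbln1, chr15:85205699-85205948, plus strand: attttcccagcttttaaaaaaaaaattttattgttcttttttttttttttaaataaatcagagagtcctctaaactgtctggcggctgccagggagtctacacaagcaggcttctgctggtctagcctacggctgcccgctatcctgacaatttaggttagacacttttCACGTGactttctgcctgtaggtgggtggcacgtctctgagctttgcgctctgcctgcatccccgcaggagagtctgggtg
*Fbln5* and *Vcan* held 2 GC box matches each, *Fbln1* held 1 E box and *Lama2* no match, and no match overlapped another. GC content was 65.2, 47.2, 62.4 and 46.4% in *Fbln5*, *Lama2*, *Vcan* and *Fbln1*, so each set held 1 window of higher and 1 of lower GC content. Over the 22 genes, 54.5% held GGGCGG, 9.09% TATAAA, 4.55% CACGTG and 0% TGANTCA. Of all 32851 promoters of the table, cut to the same length, 32.7, 12.4, 6.02 and 6.75% held these motifs in that order. Median GC content was 60.4% over the 22 genes and 52.4% over all promoters, and the motif shares were not adjusted for it. The windows of *Fbn1*, *Fbln2* and *Emilin1* lay wholly in GENCODE exons. That of *Lama2* touched no exon but lay inside the GENCODE gene (chr10:26980036-27619758, minus strand), downstream of its GENCODE start. A match is a string of letters and no evidence of binding.

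Further genes of the same pathways, 83 in all, were read from the same fit. Of these, 66 were tested. None passed FDR 0.1, against 0.0641% of all tested genes, and none had an unadjusted p under 0.05, against 3.07%. There were 34 positive and 32 negative fold changes, with a median of 0.0090. The smallest p-values of each group are given as values. Of the laminin-related genes, *Bcam*, a laminin alpha5 receptor gene, had a log2 fold change of -0.50 (SE 0.32). *Pxdn*, the peroxidase gene for sulfilimine bonds of type IV collagen, was at 15.8, 0 and 25.1 FPKM in the AM EC-KO libraries, against 17.6, 26.0, 70.7 and 26.9 FPKM in the WT libraries. Its log2 fold change of -2.06 (SE 1.13) thus rests on a library listed at 0. *Col4a5* was lowest in WT e, at 3.36 FPKM, and had a log2 fold change of 0.82 (SE 0.71).

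*Nov* and *Wisp1*, matricellular genes of the CCN family, had log2 fold changes of -0.58 (SE 0.27) and 0.47 (SE 0.27). *Nov* was at 3.98, 6.97 and 4.11 FPKM in the AM EC-KO libraries, against 7.36, 10.9, 5.33 and 8.46 FPKM in the WT libraries, with overlap through WT e. The proteoglycan genes *Srgn* (serglycin) and *Esm1* (endocan) had values of -0.42 (SE 0.22) and 0.77 (SE 0.54). *Ltbp3* and *Vwa1*, listed with the elastic fibre genes, had -0.17 (SE 0.11) and 0.85 (SE 0.56), where *Vwa1* was listed at 0 in WT e. *Leprel2*, a prolyl hydroxylase gene of collagen, and *Adamts14*, a procollagen peptidase gene, had -0.17 (SE 0.12) and -0.20 (SE 0.16). For each of these 11 genes, as for all 66 tested, the genotypes overlapped, while 5.13% of all tested genes had no overlap.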

How the data were processed

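Poly(A) RNA of cultured MLEC was sequenced by the authors as single reads in 3 AM EC-KO and 4 WT libraries, grouped here by their labels. The authors trimmed adapters with Cutadapt and mapped reads to GRCm38 with TopHat2 2.0.6, and the submitters' processing notes also name Cufflinks and Cuffdiff. The deposited table gives FPKM by library and by genotype, of which only the library FPKM were used. The log2 fold changes, p-values, q-values and test statistics in it are the authors' own comparisons and were not used. Of its 38472 genes, 172 had no library values. Whether strand was used in the counting is not given in the sources used here, so overlapping genes on opposite strands may share reads.

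Here log2(FPKM + 1) was tested in R 4.3.3 with limma 3.58.1, using its trended empirical Bayes option, AM EC-KO minus WT, two-sided. A gene entered the test with a mean of 0.1 FPKM or more and values above 0 in 3 or more libraries, which left 15604 genes, and p-values were adjusted over all of them by the Benjamini-Hochberg method, with a threshold of 0.1. Fold changes of low genes are understated on this scale. Means and SD are of FPKM. The code was tested on simulated data. Other steps used Python 3.11.15, pandas 2.3.3, numpy 2.4.6 and matplotlib 3.10.9. FPKM carry no read totals. Reads per library were estimated from the steps that 1 read makes in low values, but only 55.8 to 62.7% of those values fell within 0.1 of a whole read (20% would by chance), so whole reads were not recovered and no count model was fitted. *Vwf* was listed at 0 in 5 libraries. Whether an exact 0 is a failed estimate was not tested, and such genes are given as listed at 0.

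Coordinates are of GENCODE M21 (GRCm38), which holds all 41 identifiers. They were used in place of the deposited intervals, which covered under 10% of the gene for 16 of the 41. The length by which each FPKM was scaled is not given in the sources used here, and every ranking of genes by FPKM carries this limit. Values were given in full for the up to 4 genes of highest mean in each role, for genes with a library at least 3 times the next, and for those of the smallest p. Those of *Lama5*, *Lamb3*, *Sparcl1*, *Loxl4* and *Tgm2* were also given in full, outside this rule. The matrix genes and all lists were chosen with earlier results of these data known. Alternatives were a pseudocount of 0.1, no filter, filters at a mean of 1 FPKM and at values above 0 in every library, quantile and trimmed-mean scaling, TPM, limma without a trend and with array weights, a term for libraries e, f and g, and each library left out in turn. Apart from the 83 further pathway genes that were read, a gene of these pathways is not reported here.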

Additional observations from a re-analysis of the deposited data

Results flagged for a closer look

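Each WT value of the 41 matrix genes was compared with the other 3 WT libraries, and those whose gap to the nearest library, divided by the range of the 4, exceeded the 95% critical value of Dixon's test are given here. The ratios were taken on FPKM, and the comparison was not made on log2(FPKM + 1). About 1 in 20 groups pass this limit by chance where values are normally distributed, which FPKM were not shown to be. The limit was passed by 10 of the 41 genes, 24.4%, and by 9 of the 40 tested ones, 22.5%, against 9.83% of all tested genes. Of the 10, 9 passed the limit on the high side. In library WT e it was passed by 6 of the 41, 14.6%, and by 5 of the 40 tested ones, 12.5%, against 5.04% of all tested genes. For 3 of the 10, *Lamb3*, *Postn* and *Lum*, the other 3 WT libraries were listed at 0, so that any value in the remaining library passes. Without such genes the count was 7, 17.1% of the 41 and 17.5% of the 40 tested ones, against 8.24% of all tested genes. The AM EC-KO group of 3 libraries was too small for this comparison.

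In WT e, 5 genes lay far above the other WT libraries: *Lama1* at 1.64 FPKM, *Sparcl1* at 29.1 FPKM, *Mgp* at 1145 FPKM, *Dcn* at 227 FPKM and *Lum* at 0.483 FPKM. *Loxl4* lay far below them in the same library, at 9.94 FPKM. In WT f, *Eln* stood out at 156 FPKM, *Fbln5* at 120 FPKM and *Lamb3* at 0.820 FPKM. In WT c it was *Postn*, at 1.19 FPKM, with the other 3 WT libraries listed at 0. For *Mgp* and *Sparcl1*, AM EC-KO d, with 596 and 11.5 FPKM, also lay above the other 3 WT libraries, and for *Eln* and *Fbln5* AM EC-KO g did, with 124 and 65.5 FPKM.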

How the results depend on the processing

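None of the 40 tested matrix genes passed FDR 0.1 under any of the 17 alternatives, and the lowest adjusted p of a matrix gene was 0.852. Of 662 fold changes recomputed for single genes, 656 moved by less than 1 SE of their own gene, an SE that was wide for genes such as *Mgp* and *Eln*. The sign changed in 46 of the 662, of which 10 were of genes with a reported absolute log2 fold change over 0.2. The sign was kept throughout by 25 genes. At an unadjusted p under 0.05 the count of matrix genes was 0 in the values reported and 1 with quantile normalization (*Loxl3*), 1 with array weights (*Vcan*) and 1 with a term for libraries e, f and g (*Loxl2*). Leaving out each library in turn gave 0 to 2: *Loxl2* and *Loxl3* without WT a, *Hspg2* without WT e, *Lox* without WT f, *Loxl3* and *Postn* without AM EC-KO b, and *Vcan* without AM EC-KO g. Over all genes, the count past FDR 0.1 was 10, against 18 with a pseudocount of 0.1, 0 when only genes above 0 in every library were tested (limma, 364 of them at an unadjusted p under 0.05) and 8 to 39 with a library left out, the highest without WT a. The laminin median of -0.0024 became 0.096 with a pseudocount of 0.1 and -0.088 where genes needed a mean of 1 FPKM, and lay between -0.12 and 0.023 with a library left out. That of the crosslinking enzymes lay between 0.051 and 0.23 with a library left out, the highest without AM EC-KO b. The causes of these shifts were not tested. No paired analysis was possible because the libraries of the genotypes share no replicate number. Depth, roughly estimated at 6.44 to 7.7 M reads, is likely to limit the genes under 1 FPKM most, which was not tested.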
